A study of Mus musculus with 8 samples.

Results

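Circular RNAs of 7 genes that regulate chromatin and transcription were described in mouse hearts under lasting pressure overload. The genes are Eed, Ash1l, Tet3, Carm1, Cdyl, Med13l and Aff1, and the members are all rows of the circRNA table that carry their names, 61 circles of 27391, from 7 host genes of 6492. They were picked from an earlier look at these libraries, in which their levels after transverse aortic constriction (TAC) and after a sham operation had been seen. Their TAC and sham values are therefore given as a description, with no p-value. The TAC group held 4 male wild-type mice whose aortic arch had been narrowed, and the sham group held 4 male wild-type mice that had undergone surgery without the constriction. Heart tissue of both groups was taken 8 weeks after surgery, 1 library per mouse, and no other allele or agent is named in the labels. The unit throughout is normalised reads, the back-spliced reads of a circle divided by 1 size factor per library.

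A circular RNA forms when splicing joins the end of an exon (the donor) to the beginning of that exon or of one upstream (the acceptor), and only reads across this closing junction count the circle. Such circles have no free ends and outlast many linear RNAs, and long introns around the exons are known to favour them. The host genes sit on opposing sides of gene silencing. Eed is the core subunit of Polycomb repressive complex PRC2 that reads the repressive methyl mark on histone H3 and stimulates the enzyme Ezh2. Cdyl is a chromodomain corepressor that binds repressive histone methylation. Ash1l methylates histone H3 in active chromatin and counteracts Polycomb silencing, and Tet3 oxidises methylated cytosine in DNA. Carm1 is an arginine methyltransferase that acts as a transcriptional coactivator. Med13l belongs to the kinase module of Mediator, and Aff1 is a scaffold of the super elongation complex that releases paused RNA polymerase II.

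The circles that carried most reads of these genes close through the junctions printed here, each read in the direction of the gene. Lower case letters are the last 30 bases of the donor exon and capitals are the first 30 bases of the acceptor exon, from GENCODE M21 transcripts on mm10. These 60 bases identify each circle against its linear RNA.
Eed exons 9 to 11: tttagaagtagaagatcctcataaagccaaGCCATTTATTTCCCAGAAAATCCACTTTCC
Carm1 exons 2 to 4: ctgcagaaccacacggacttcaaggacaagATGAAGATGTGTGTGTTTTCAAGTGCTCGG
Med13l exon 2: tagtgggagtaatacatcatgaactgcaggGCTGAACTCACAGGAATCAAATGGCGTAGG
Cdyl exon 5: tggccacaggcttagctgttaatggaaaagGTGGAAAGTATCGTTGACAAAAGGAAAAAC
Cdyl exons 4 to 5: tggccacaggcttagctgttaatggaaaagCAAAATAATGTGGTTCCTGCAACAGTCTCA
Ash1l exons 4 to 5: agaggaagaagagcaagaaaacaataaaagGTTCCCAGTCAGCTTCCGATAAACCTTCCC
Ash1l exons 8 to 10: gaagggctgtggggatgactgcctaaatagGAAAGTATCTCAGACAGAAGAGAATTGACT
Ash1l exons 11 to 12: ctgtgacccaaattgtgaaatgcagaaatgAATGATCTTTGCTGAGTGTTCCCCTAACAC
Aff1 exons 2 to 3: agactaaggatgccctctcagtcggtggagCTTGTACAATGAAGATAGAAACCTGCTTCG
The pair of Cdyl circles share their donor letters and differ in the acceptor. The junctions of the Tet3 circles are not shown because their acceptor exons hold 5' UTR.

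The libraries were unequal. TAC replicates 1 to 4 held 33132, 1119, 21074 and 36120 back-spliced reads, and sham replicates 1 to 4 held 40796, 3963, 17890 and 100142. TAC replicate 2 and sham replicate 2, each under 5000 reads, also went against their groups in circle length. Circles of 500 nt or more took 57.0, 18.5, 53.3 and 49.8% of reads in TAC replicates 1 to 4, against 26.1, 48.4, 23.5 and 21.3% in sham replicates 1 to 4. A count of 0 in TAC replicate 2 allows up to 17.3 normalised reads, and in sham replicate 2 up to 13.6, against 0.584 to 3.09 in the other libraries (3 reads each, counting error only). Log2 differences are given over all 8 libraries and without these 2.

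Circles of cardiomyocyte marker genes marked the tissue. Of 12 such markers 10 had circles, summing to 277 to 1680 normalised reads in TAC and 166 to 804 in sham libraries, while Tnni3 and Pln had no row. Summed fibroblast markers stood at 0 to 3.72 in TAC and 2.48 to 5.06 in sham, and endothelial markers at 0 to 57.9 in TAC and 12.9 to 40.9 in sham. Smooth muscle and pericyte markers stood at 12.4 to 28.9 in TAC and 8.28 to 22.7 in sham, and leukocyte markers at 11.5 to 24.2 in TAC and 7.58 to 19.0 in sham. Lum and Postn, Acta2, Tagln, Rgs5 and Cspg4, and Cd68, Csf1r, Cd163 and Lyz2 of these lists had no row. Without the 2 shallow libraries the cardiomyocyte sums were 1117 to 1680 in TAC and 166 to 330 in sham, the endothelial sums 31.97 to 57.9 in TAC and 12.9 to 14.9 in sham, and the smooth muscle and pericyte sums 12.4 to 22.9 in TAC and 8.28 to 11.1 in sham, with no overlap. The fibroblast sums (2.06 to 3.72 in TAC, 2.48 to 5.06 in sham) and leukocyte sums (17.5 to 24.2 in TAC, 7.58 to 19.0 in sham) overlapped. The cardiomyocyte, endothelial, and smooth muscle and pericyte sums were thus higher in TAC in these 6 libraries. The Ash1l, Tet3, Cdyl and Aff1 sums were also higher there, and the Eed, Carm1 and Med13l sums were lower. The normalised totals of all circles were higher in TAC too, at 24636, 21691 and 22971 in TAC replicates 1, 3 and 4. Sham replicates 1, 3 and 4 totalled 15470, 14814 and 19483. As shares of these totals over all 8 libraries, cardiomyocyte markers took 4.29 to 6.82% in TAC and 1.04 to 4.47% in sham. Endothelial shares (0 to 0.252% and 0.0709 to 0.227%) and smooth muscle and pericyte shares (0.0569 to 0.447% and 0.0559 to 0.126%) overlapped. The part of cell makeup in the results was not tested, and in whole tissue fewer cells of a type and less RNA per cell cannot be told apart.

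The 61 circles held 2455 reads, 0.966% of all 254236, and most of these reads came from few circles. The 7 circles with the largest mean of their gene held 2100 reads (85.5%), while 21 circles rested on 1 read and 26 (42.6%, against 61.7% of the whole table) were seen in 1 library. Only 14 were above 0 in at least 4 of 8 libraries, and 2 in all 8. In TAC libraries alone 28 circles were seen, in sham libraries alone 8, and in both 25. Libraries also differed in the circles of any gene they held, at 10786, 567, 7770 and 11550 in TAC replicates 1 to 4. Sham replicates 1 to 4 held 9081, 1830, 4980 and 5600. The share of all circles seen in 1 group only was not computed, so such counts, here and below, cannot be called particular to the members. Spliced lengths ran from 169 to 5075 nt with a median of 647 nt. By GENCODE M21, 55 of the 61 circles lie wholly in coding sequence, the other 6 also hold the start codon, and 6 are single exons.

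**Figure D1:**
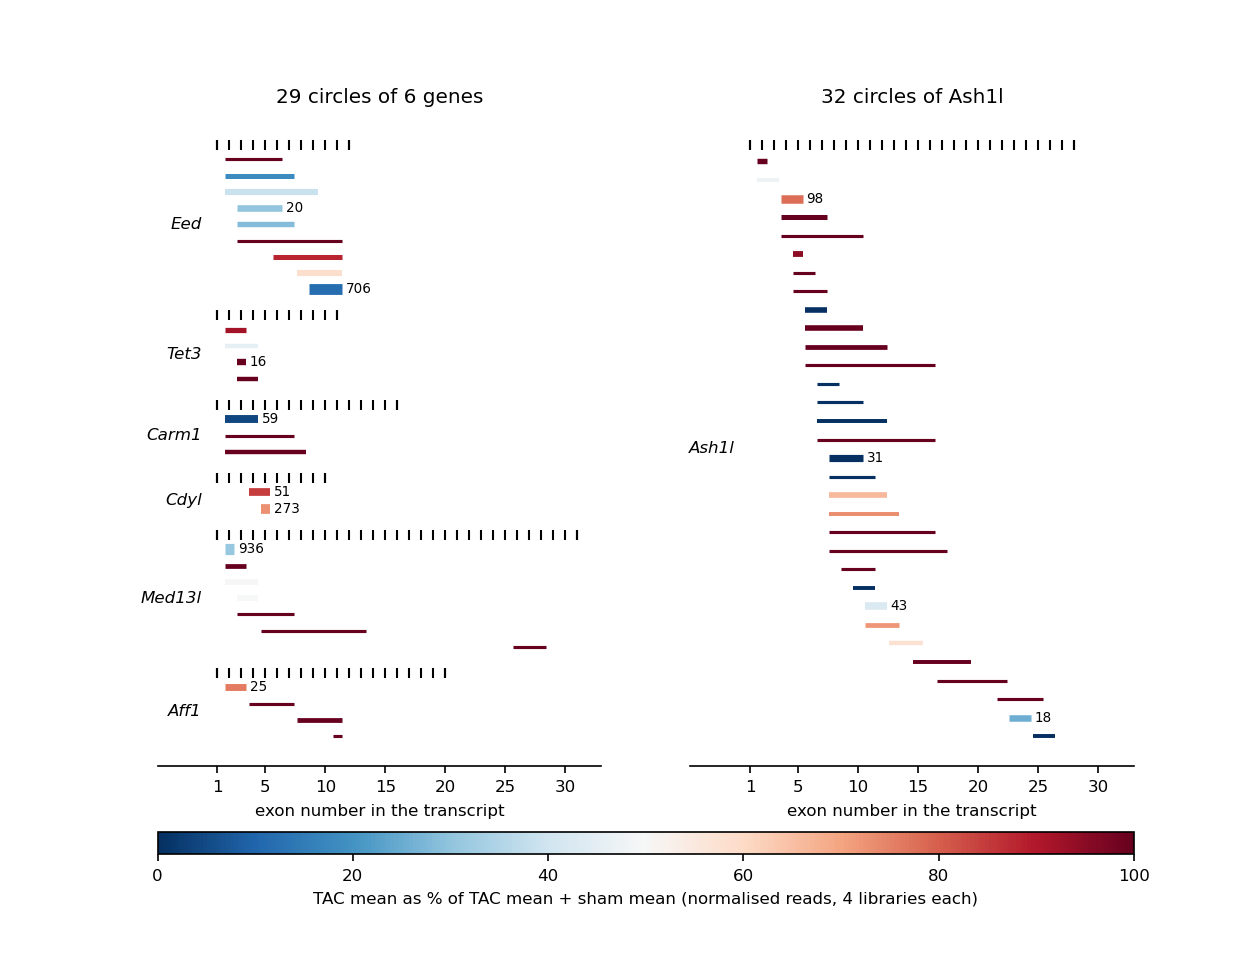
Each bar is a circle, drawn over the exon numbers (horizontal axis) of its gene's GENCODE transcript, whose exons are the black ticks above the bars. Bar thickness grows with the logarithm of the reads, numbers give reads of circles with at least 15, and colour gives the TAC mean as a percentage of the TAC and sham means together, from blue (sham) to red (TAC). Med13l and Eed place most reads in a single blue bar (936 and 706 reads), while Ash1l spreads over 32 bars with red ones near exon 4 and blue ones at exons 8 to 10 and 23 to 24.

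Among the repressive regulators, the Eed circles were lower in TAC hearts and the Cdyl circles were higher there once the 2 shallow libraries were set aside. Eed, the PRC2 subunit, had 9 circles with 771 reads, rank 68 of 6492 hosts by mean level; each circle has 1 closing junction, so these levels are not scaled by length. The sum of its circles was 17.1, 11.5, 7.21 and 10.8 normalised reads in TAC replicates 1 to 4, against 36.8, 27.3, 59.6 and 106.4 in sham replicates 1 to 4. Every TAC library stood below every sham library, although TAC replicate 2 rests on 2 reads and sham replicate 2 on 6. The means were 11.7 ± 4.09 in TAC and 57.5 ± 35.3 in sham (SD, n = 4 each). The limma log2 difference, TAC minus sham, was -2.15 ± 0.90 (SE), and -2.46 ± 0.38 without the 2 shallow libraries. Here and throughout, limma's differences are of log2(normalised reads + 0.195), and its SE comes from the trend of spread with level, which all tested features share, rather than from the circle or gene in question.

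The Eed signal lay in the circle of exons 9 to 11 (339 nt, chromosome 7, 89955531 to 89962361, minus strand, mm10), which held 706 of the reads (91.6%). It had 6.69, 11.5, 5.15 and 3.18 normalised reads in TAC replicates 1 to 4, against 31.5, 9.09, 55.5 and 103.7 in sham replicates 1 to 4. Sham replicate 2, with 2 reads of this circle, fell within the TAC range, and the other sham libraries stood above all TAC libraries. Its log2 difference was -2.55 ± 1.13 (SE) over 8 libraries and -3.51 over the 6 deeper ones. The minor Eed circles stood nearer to 0 over 8 libraries. The circle of exons 3 to 6 (20 reads) gave -1.33 and -0.24 without the 2 libraries, that of exons 8 to 11 (13 reads) gave -0.05 and -0.07, and that of exons 2 to 9 (852 nt, 13 reads) gave 0.12 and 1.69. Exons 8 to 11 end at the same donor as exons 9 to 11, the donor of exon 11 that closed 725 of 771 Eed reads. In TAC libraries the circle of exons 9 to 11 held 21 of the 31 reads closed by this donor, and in sham libraries it held 685 of 694. These are pooled reads, and sham replicate 4 alone gave 533 of the 685.

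Cdyl, the chromodomain corepressor, had only 2 circles, yet 324 reads and rank 78 of hosts. The circle of exon 5 alone (667 nt, chromosome 13, 35815909 to 35816575, plus strand) held 273 reads. It had 43.1, 0, 66.9 and 55.3 normalised reads in TAC replicates 1 to 4, against 7.58, 45.4, 3.31 and 5.64 in sham replicates 1 to 4. The 2 shallow libraries stood with the opposite group, at 0 in TAC replicate 2 and 45.4 in sham replicate 2, so the groups overlapped. With all 8 libraries the log2 difference was 0.53 ± 1.24 (SE), and without the 2 it was 3.33. The circle of exons 4 to 5 (742 nt, 51 reads) had 11.9, 0, 11.3 and 5.09 in TAC, against 1.52, 0, 1.66 and 1.95 in sham, with log2 differences of 1.69 ± 1.61 (SE) and 2.25. Of the reads closed by the shared donor of exon 5, it took 35 of 245 in TAC and 16 of 79 in sham. These too are pooled reads, and sham replicate 4 gave 39 of the 79. The gene sum gave 0.40 ± 1.12 over 8 libraries and 3.15 ± 0.37 over 6.

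**Figure D2:**
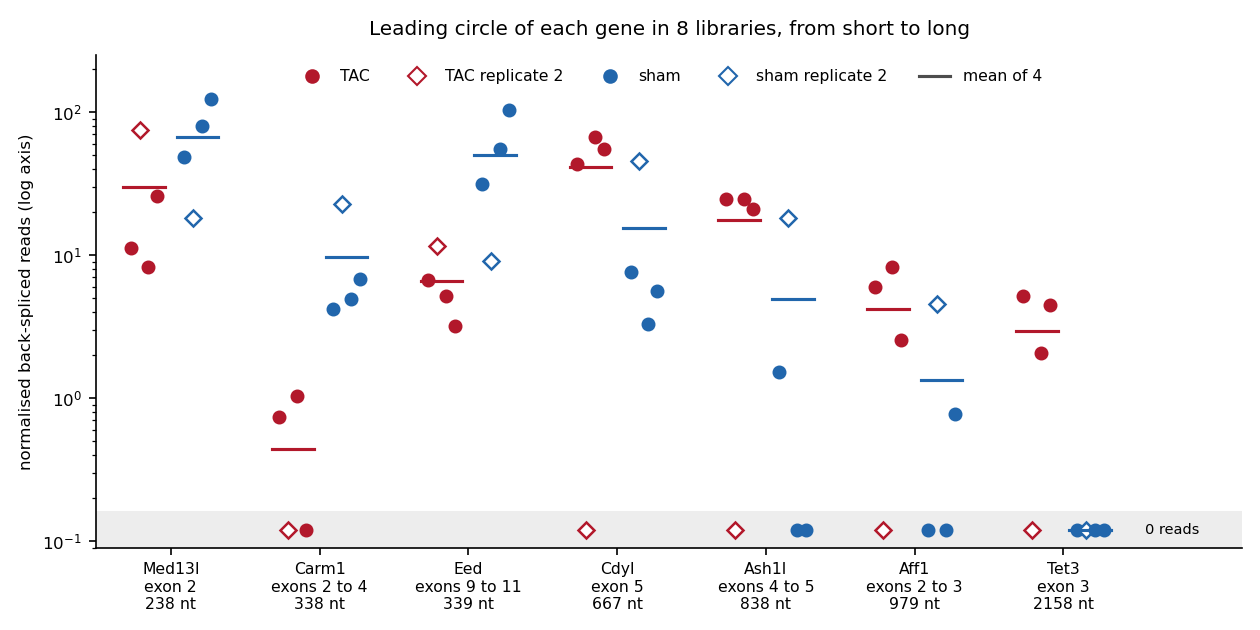
Normalised back-spliced reads (log axis, with a grey band for libraries at 0 reads) of a leading circle per gene, ordered by spliced length, in TAC (red, left) and sham (blue, right) libraries. For Tet3 the circle with the most reads (exon 3) is drawn in place of that with the largest mean (exons 3 to 4). Tet3 exons 3 to 4 had 0, 1.03 and 0 normalised reads in TAC replicates 1, 3 and 4 and 0 in every sham library. Lines are means of 4 libraries and open diamonds mark replicate 2 of each group. Filled TAC points lie below filled sham points for the 3 circles of 238 to 339 nt and above them for the 4 circles of 667 to 2158 nt, while the diamonds often lie with the opposite group.

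Among the methylating and demethylating enzymes, circles of Ash1l and Tet3 were higher in the deeper TAC libraries and the circle of Carm1 was lower. Ash1l, the histone methyltransferase that opposes Polycomb, had 32 circles with 273 reads. Its sum was 39.4, 11.5, 37.1 and 38.2 normalised reads in TAC replicates 1 to 4, against 13.7, 18.2, 7.45 and 14.2 in sham replicates 1 to 4. The 3 deep TAC libraries lay within 37.1 to 39.4, and TAC replicate 2, with 2 reads, fell among the sham values. Means were 31.5 ± 13.4 in TAC and 13.4 ± 4.43 in sham (SD, n = 4 each), with a log2 difference of 1.14 ± 0.98 (SE), and 1.74 ± 0.37 without the 2 libraries.

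The sum hid circles that differed in opposite directions. Exons 4 to 5 (838 nt, chromosome 3, 89001773 to 89007877, plus strand, 98 reads) had 24.5, 0, 24.7 and 21.0 normalised reads in TAC replicates 1 to 4, against 1.52, 18.2, 0 and 0 in sham replicates 1 to 4. Sham replicate 2 alone in its group stood near the deep TAC libraries, with 4 reads, and TAC replicate 2 had none. The log2 difference was 2.76 ± 1.59 (SE), and 5.87 without the 2 libraries. Exon 5 on its own (736 nt, 10 reads) had 2.97, 0, 2.06 and 1.91 in TAC, against 0.379, 0, 0 and 0 in sham, a log2 difference of 2.36 ± 1.25 (SE), and 3.14 without the 2 libraries. Exons 8 to 10 (229 nt, 31 reads) showed the reverse. They had no read in any TAC library, against 1.52, 0, 1.66 and 4.86 normalised reads in sham replicates 1 to 4, and 25 of the 31 reads came from sham replicate 4. A 0 in TAC replicates 1 to 4 allows up to 2.23, 17.3, 3.09 and 1.91. Only sham replicate 4 stood above the limits of the deep TAC libraries. Exons 11 to 12 (354 nt, 43 reads) had 0.744, 5.77, 1.03 and 0.636 in TAC, against 3.03, 0, 2.48 and 5.45 in sham. Its log2 difference was -0.18 ± 1.60 (SE), and -1.89 without the 2 libraries. Exons 23 to 24 (312 nt, 18 reads) gave -1.16 ± 1.35 (SE), and -1.55 without the 2 libraries, while exons 8 to 12 (583 nt, 9 reads) gave 0.35 and 0.47.

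Sorted by acceptor, the Ash1l reads differed along the gene. Circles that begin at exon 4 had 96 reads in TAC and 8 in sham libraries, and those that begin at exon 5 had 11 in TAC and 1 in sham. The acceptor of exon 6 had 13 in TAC and 8 in sham, and these split by circle. Exons 6 to 7 (275 nt) had 0 in TAC and 8 in sham. Exons 6 to 10, 6 to 12 and 6 to 16 (504, 858 and 1382 nt) had 8, 4 and 1 in TAC and 0 in sham. Circles that begin at exon 8 had 7 reads in TAC and 38 in sham, those at exon 11 had 7 in TAC and 40 in sham, and that at exon 23 had 2 in TAC and 16 in sham. These are pooled reads of libraries of unequal depth, and sham replicate 4 alone gave 73 of the Ash1l reads. Position along the gene was not separated from circle length. The remaining Ash1l circles, among them the longest of the 61 (exons 2 to 3, 5075 nt), had fewer than 15 reads each and were seen in fewer than 4 libraries.

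**Figure D3:**
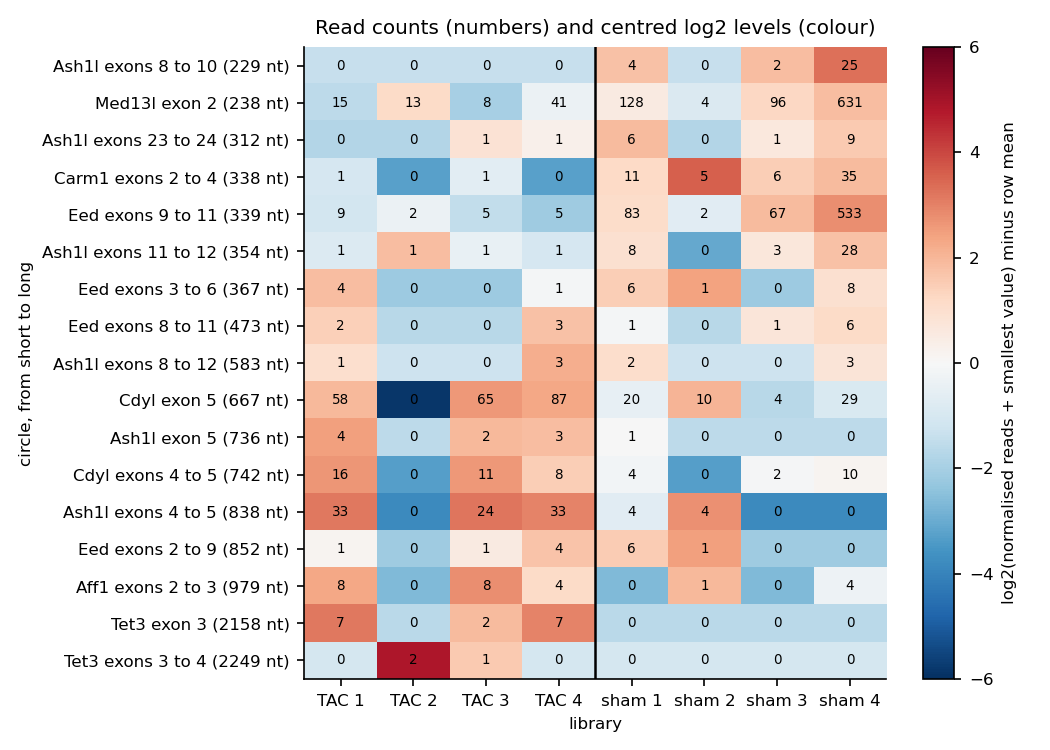
The 17 circles above 0 in at least 4 libraries, with at least 15 reads or leading their gene, from short (top) to long (bottom), in 4 TAC libraries (left) and 4 sham libraries (right). Numbers are recovered reads, and colour is log2(normalised reads + 0.195) minus the mean of the row, red above and blue below it. Reads of the shortest circles gather in sham replicates 1, 3 and 4 (631 reads of Med13l exon 2 in sham replicate 4) and those of Cdyl exon 5 and Ash1l exons 4 to 5 in TAC replicates 1, 3 and 4.

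Tet3, the DNA demethylation enzyme, had 4 circles with 28 reads, all of which include the long exon 3 with the start codon. The sum was 5.20, 11.5, 6.18 and 6.36 normalised reads in TAC replicates 1 to 4, against 1.14, 0, 0 and 0 in sham replicates 1 to 4. Every TAC library exceeded every sham library, although TAC replicate 2 rests on 2 reads and the sham group on 3. Means were 7.32 ± 2.86 in TAC and 0.284 ± 0.569 in sham (SD, n = 4 each), with a log2 difference of 4.51 ± 1.59 (SE), and 4.04 ± 1.15 without the 2 libraries. Exon 3 alone (2158 nt, chromosome 6, 83402667 to 83404824, minus strand) had 7, 0, 2 and 7 reads in TAC replicates 1 to 4 and none in sham. A circle of exons 3 to 4 (2249 nt) had the largest mean of the gene through 2 reads in TAC replicate 2 and 1 in TAC replicate 3.

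Carm1, the arginine methyltransferase, had 3 circles that all begin at exon 2. The circle of exons 2 to 4 (338 nt, chromosome 9, 21569455 to 21575518, plus strand) held 59 of 63 reads. It had 0.744, 0, 1.03 and 0 normalised reads in TAC replicates 1 to 4, against 4.17, 22.7, 4.97 and 6.81 in sham replicates 1 to 4. The groups did not overlap, and the highest sham value rests on 5 reads of the shallow replicate 2. The 0 in TAC replicate 2 allows up to 17.3, above the other sham values. The log2 difference was -4.09 ± 1.61 (SE), and -3.16 without the 2 libraries. The longer circles, exons 2 to 7 (718 nt, 1 read) and exons 2 to 8 (800 nt, 3 reads), were seen in TAC libraries only. So all 57 sham reads, 35 of them from sham replicate 4, and 2 of 6 TAC reads of Carm1 closed at exon 4. The gene sum gave 1.16 ± 1.28 in TAC and 9.67 ± 8.77 in sham (SD, n = 4 each), a log2 difference of -3.12 ± 1.58 (SE), and -1.87 without the 2 libraries.

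Of the Mediator and elongation genes, Med13l circles were lower and Aff1 circles were higher in the deeper TAC libraries. The exon 2 circle of Med13l (238 nt, chromosome 5, 118593333 to 118593570, plus strand) ranked 18 of all 27391 circles by mean level and held 936 of the gene's 965 reads (97.0%). Its sequence is shown whole because this short ring carries more reads than the other 6 leading circles each do.
Med13l exon 2, whole circle from its acceptor end: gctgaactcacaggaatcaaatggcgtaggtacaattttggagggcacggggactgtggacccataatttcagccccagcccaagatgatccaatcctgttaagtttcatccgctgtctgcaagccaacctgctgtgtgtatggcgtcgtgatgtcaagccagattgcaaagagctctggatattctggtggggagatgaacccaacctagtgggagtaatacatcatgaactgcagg
It had 11.2, 75.1, 8.23 and 26.1 normalised reads in TAC replicates 1 to 4, against 48.5, 18.2, 79.5 and 122.8 in sham replicates 1 to 4. TAC replicate 2 (13 reads) and sham replicate 2 (4 reads) again stood with the opposite group, and the deep libraries did not overlap. Means were 30.1 ± 31.0 in TAC and 67.2 ± 44.7 in sham (SD, n = 4 each), with a log2 difference of -1.38 ± 0.86 (SE), and -2.52 without the 2 libraries. The gene sum gave -1.17 ± 0.76 (SE), and -2.24 ± 0.37 without the 2 libraries. Of the other 6 Med13l circles, 4 were seen in TAC libraries only.

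Aff1, the elongation scaffold, had 4 circles with 31 reads, 25 of them from exons 2 to 3 (979 nt, chromosome 5, 103783124 to 103784513, plus strand). This circle had 8, 0, 8 and 4 reads in TAC replicates 1 to 4, against 0, 1, 0 and 4 in sham replicates 1 to 4. In normalised reads that is 5.95, 0, 8.23 and 2.54 in TAC and 0, 4.54, 0 and 0.778 in sham, so the groups overlapped through both shallow libraries. The log2 difference was 1.83 ± 1.57 (SE), and 3.97 without the 2 libraries. The other 3 Aff1 circles were seen in TAC libraries only, and the gene sum gave 2.15 ± 1.58 (SE), and 4.40 ± 1.14 without the 2 libraries.

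Over the 7 gene sums, the groups did not overlap for 3 (Eed, Tet3 and Carm1), where 3.24% of 2967 hosts tested did not overlap. A 0 allows up to 17.3 normalised reads for Carm1 in TAC replicate 2. For Tet3 in sham replicate 2 it allows up to 13.6. Without the 2 shallow libraries all 7 sums did not overlap, against 32.5% of 2881 hosts. Among the 14 circles above 0 in at least 4 libraries 1 did not overlap over 8 libraries, against 3.11% of 3735 circles, and 9 did not over the 6 deeper ones, against 33.8% of 3494 circles. At an adjusted p under 0.05, limma called none of the 14 circles or 7 sums, against 0.0268% of circles and 0.0337% of hosts. Without the 2 libraries it called 7 of the 14 circles, Carm1 exons 2 to 4 among them, against 11.6% of circles. In that fit it called 6 of the 7 sums, all but Carm1, against 12.4% of hosts. The edgeR quasi-likelihood test on the recovered reads called 3 of the 5 member circles it could test (Ash1l exons 4 to 5 higher, Eed exons 9 to 11 and Carm1 exons 2 to 4 lower), against 13.1% of circles, and 4 of 7 sums (Tet3 and Aff1 higher, Eed and Carm1 lower), against 8.24% of hosts. Because the genes were picked with this contrast known, these counts are descriptive. Rescaling by TMM shifted the median log2 difference of all hosts from 0.13 to -0.03, and none of the 7 sums changed sign under it. Without the 2 shallow libraries the limma median was 0.61 over all hosts and 0.45 over all circles.

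The direction of the differences followed circle length. Of the 14 circles, the 7 of 500 nt or more all had positive log2 differences, with a median of 1.69, and the 7 shorter ones all had negative ones, with a median of -1.33. The limit of 500 nt was chosen after the values were seen, and 5 of the 14 circles changed sign when a library was left out or another setting was used (Eed exons 8 to 11 and 2 to 9, Ash1l exons 11 to 12 and 8 to 12, and Cdyl exon 5). Among all tested circles, 72.1% of those of 500 nt or more were positive and 42.9% of shorter ones. The median log2 difference of all circles stepped up with length, at -0.83 under 300 nt, -0.06 for 300 to 500 nt, 0.72 for 500 to 1000 nt and 1.35 from 1000 nt. Without the 2 shallow libraries the 7 long member circles all stayed positive (median 3.14, against 1.60 for all circles of that length) and the 7 short ones negative (-1.89 against -0.12).

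**Figure D4:**
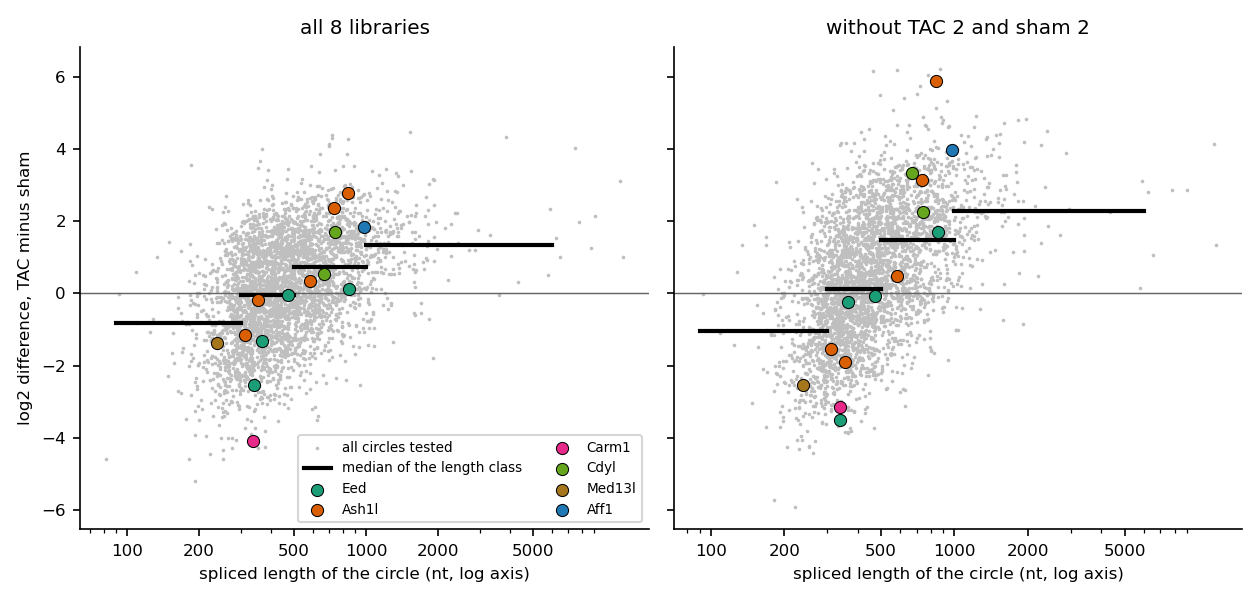
Log2 difference, TAC minus sham (vertical axis), against spliced length (log axis) of every circle tested, grey, with the member circles in colour and black lines for the median of each length class, over all 8 libraries (left) and without TAC replicate 2 and sham replicate 2 (right). Medians step up from -0.83 to 1.35 on the left. Member circles under 500 nt lie below 0 and longer ones above it, and no Tet3 circle was seen in enough libraries to be drawn.

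When the trend of length was removed from each library, the member differences became smaller for the long circles and less so for the short ones. Of the 7 long circles 4 remained positive with a median of 0.57, against -0.12 for all long circles, and the 7 short ones remained negative with a median of -0.74, against -0.05 for all short circles. The Eed sum went to -1.97 ± 0.89 (SE) and the Carm1 sum to -2.90 ± 1.09, near their values without the removal. Med13l became -0.33 ± 0.89 and Ash1l 0.58 ± 0.89. Tet3 became 3.28 ± 1.14, Aff1 1.33 ± 1.10 and Cdyl -0.10 ± 1.07. With the removal and without the 2 libraries, Eed stood at -2.55, Carm1 at -1.90, Med13l at -1.45, Cdyl at 1.92, Aff1 at 2.59, Tet3 at 1.54 and Ash1l at 0.40. Why libraries differ in circle length was not tested.

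The circles also varied in build. The intron after Eed exon 11 is 467 nt, longer than only 1.90% of the introns after tested circles (median 7955 nt), and the intron before exon 9 is 2367 nt (median 9324 nt). Med13l exon 2 lies between introns of 32475 and 77442 nt, the second longer than 97.7% of those after tested circles. Cdyl exon 5 lies between 25733 and 40087 nt, Aff1 exons 2 to 3 between 28778 and 26549 nt, and Ash1l exons 4 to 5 between 15982 and 15153 nt. GC content was 38.6% in Eed exons 9 to 11 and 60.8% in Tet3 exon 3. Over all 61 circles it ran from 37.4% in Eed exons 8 to 11 to 62.2% in Aff1 exons 8 to 11.

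Carried on around the ring in the host's reading frame, Eed exons 9 to 11, whose length is a multiple of 3, met no stop codon in 4 rounds. The other leading circles met a stop after the junction. It began 2 bases past it in Med13l exon 2, 9 in Aff1 exons 2 to 3, 14 in Cdyl exon 5, 19 in Ash1l exons 4 to 5, 23 in Tet3 exon 3 and 150 in Carm1 exons 2 to 4. In Tet3 exons 3 to 4, the Tet3 circle with the largest mean, the stop began 85 bases past the junction. In Ash1l exons 11 to 12 the stop straddles the junction, where the donor ends in atg and the acceptor begins with a. Of the 61 circles, 20 have a length that is a multiple of 3. These are features of sequence, and translation was not measured.

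The hosts with the closest profiles over the 8 libraries were found among 1721 hosts above 0 in at least 6 libraries, by the mean absolute difference of centred log2 levels. Ash1l lay nearest to Nsd2 (0.18, where its median over hosts was 1.35), Cdyl to Rbm33 (0.34), Aff1 to Tnrc6a (0.36), Eed to Erbin (0.37), Med13l to Cnot2 (0.44), Carm1 to Ybx3 (0.45) and Tet3 to Disc1 (0.72). Nsd2 circles summed to 40.9, 11.5, 35.0 and 44.5 normalised reads in TAC replicates 1 to 4, against 16.3, 13.6, 9.11 and 12.8 in sham replicates 1 to 4, with TAC replicate 2 among the sham values as for Ash1l. Among the 7 genes, Eed and Med13l were nearest to each other (0.72) and Carm1 and Tet3 farthest apart (3.82).

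Partner genes of the same complexes and pathways gave no call in limma over all 8 libraries. Of 175 genes in 8 lists, 114 had circles and 60 were tested as host sums, with 0 at an adjusted p under 0.05 and 0 at an unadjusted p under 0.05. In edgeR 1 of 29 passed, Scmh1, a Polycomb PRC1 protein. Its sum was 20.8, 0, 23.7 and 28.0 normalised reads in TAC replicates 1 to 4, against 6.83, 0, 1.66 and 3.89 in sham replicates 1 to 4, a log2 difference of 1.90 (edgeR, adjusted p = 0.0351). Without the 2 shallow libraries limma called 12 of the 60 (20%, against 12.4% of all hosts), 10 higher and 2 lower in TAC, beside 283 higher and 74 lower of all hosts. That surplus of higher calls over all hosts was absent from the same 6 libraries in edgeR (151 higher, 148 lower) and with the length trend removed (63 higher, 86 lower). The lists were chosen with earlier results of these data known, so the counts and adjusted p-values of partners are descriptive.

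In the limma fit of 6 libraries, where the median log2 difference of all hosts was 0.61, none of 7 PRC2 partners of Eed passed. Ezh2, the catalytic subunit, gave 1.27 ± 0.47 (limma, SE, adjusted p = 0.0661) and Rbbp4, a histone-binding subunit, -0.45 ± 0.53 (limma, SE, adjusted p = 0.627). Of 9 PRC1 and PR-DUB genes Scmh1 was higher (2.69, limma adjusted p = 2.61e-05) and Asxl1 lower (-3.00, limma adjusted p = 0.0321), while Asxl2 gave 0.99 (limma adjusted p = 0.167). Of 11 genes listed for methylation of active histone H3, which include a complex subunit (Ash2l), a reader (Morf4l1) and a demethylase of the Polycomb mark (Kdm6a) beside methyltransferases, the methyltransferases Nsd1, Nsd2 and Nsd3 were higher (1.84, 1.67 and 1.64, limma adjusted p = 0.0266, 0.00079 and 0.0364), and Kmt2a gave 0.44 (limma adjusted p = 0.440).

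Of 4 DNA methylation genes, Dnmt3a, which adds the cytosine methyl mark that Tet3 oxidises, was higher (2.82, limma adjusted p = 0.00964) in the 6 libraries, and Mbd2, which binds that mark, gave 0.50 (limma adjusted p = 0.647). Dnmt3a had 8.18, 23.1, 11.3 and 8.90 normalised reads in TAC replicates 1 to 4, against 2.28, 4.54, 4.97 and 0 in sham replicates 1 to 4, so the groups did not overlap over 8 libraries either. Of 7 arginine methylation and coactivator genes the acetyltransferase Crebbp was higher (2.47, limma adjusted p = 0.001), and Ep300 gave -0.55 (limma adjusted p = 0.372). Of 4 genes of H3 silencing methylation and Cdyl partners Ehmt1 was higher (1.37, limma adjusted p = 0.0172), and Rcor1 gave 1.96 (limma adjusted p = 0.172). Of 6 Mediator genes Cdk8, the kinase of the module that holds Med13l, was lower (-0.97, limma adjusted p = 0.0464), with 28.9 to 31.9 normalised reads in the 4 TAC libraries, against 38.9 to 87.2 in the 4 sham libraries. Med12l gave 1.06 (limma adjusted p = 0.161). Of 12 elongation genes Aff4, Mllt3 and Cdc73 were higher (4.07, 2.63 and 2.59, limma adjusted p = 0.0142, 0.00118 and 0.0424), and Mllt10 gave 0.67 (limma adjusted p = 0.262). With all 8 libraries and limma, several partners had the other sign, at -0.69 for Ezh2, -0.98 for Asxl2, -1.39 for Kmt2a, -0.41 for Nsd3, -0.78 for Mbd2 and -0.74 for Med12l. The calls of the 6 libraries kept their sign over all 8 apart from Nsd3, with 2.01 for Scmh1, -2.25 for Asxl1, 1.29 for Nsd1, 1.19 for Nsd2, 2.69 for Dnmt3a, 0.14 for Crebbp, 1.12 for Ehmt1, -0.86 for Cdk8, 1.52 for Aff4, 0.33 for Mllt3 and 1.64 for Cdc73. With the length trend removed in the 6 libraries, Nsd1 gave -0.58, Nsd2 0.12, Nsd3 -0.01 and Ehmt1 0.48. In that fit Scmh1 gave 1.55, Asxl1 -2.13, Dnmt3a 1.64, Crebbp 1.82, Cdk8 -1.26, Aff4 2.27, Mllt3 2.08 and Cdc73 2.38. The median log2 difference of a list over 8 libraries was 0.01 for PRC2, 0.32 for PRC1 and PR-DUB, 0.39 for active histone H3 methylation, -1.02 for DNA methylation, -0.65 for arginine methylation and coactivators, 0.20 for H3 silencing methylation, -0.02 for Mediator and 0.31 for elongation, beside 0.13 for all hosts. Asxl1, Nsd1, Nsd3, Aff4 and Cdc73 were named after their values were seen.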

How the data were processed

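The members and gene lists were chosen with earlier results of these data known. Circular RNA was extracted from heart with a commercial kit and sequenced by a company, per the labels' protocols. The submitters' processing notes list the build mm10 and, with no version or role, HISAT2, StringTie and DESeq2. The circRNA caller and the strand, not given in the sources used here, could not be taken into account. The deposited unit is signal, the authors' back-spliced reads divided by 1 size factor per library. This follows from the values, of which 100% were whole multiples (within 0.001) of the smallest one of a library, so reads were recovered.

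The main fit was limma 3.58.1 (R 4.3.3) with an intensity trend on log2(signal + 0.195), where 0.195 is the lowest value above 0 in the table, for circles or host sums above 0 in at least 4 of 8 libraries. The edgeR 4.0.16 quasi-likelihood test (TMM, robust, minimum count 5, minimum total 15) and DESeq2 1.42.0 were run on recovered reads. Benjamini-Hochberg adjustment ran over all features tested, with a threshold of 0.05. Length trends were removed by robust loess (span 0.5) per library. The limma, edgeR and DESeq2 fits of circles over 8 libraries were tested on simulated reads. Fits of host sums, of 6 libraries, of TMM-rescaled values or with the length trend removed were not. Replicates are separate mice numbered in accession order. Exon numbers and lengths are those of 1 GENCODE M21 transcript per member gene, and the table's starts were moved to count from 1. Named circles lead their gene, were above 0 in at least 4 libraries or had at least 15 reads. Partners named per list are up to 3 that passed, or else the 2 with the largest mean. Overlapping and antisense genes were not separated.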

Additional observations from a re-analysis of the deposited data

Results flagged for a closer look

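In 11 of 45 groups of 4 libraries tested, a single library of the member sums or named circles stood far from the other 3. TAC replicate 2 did so for the Ash1l sum (11.5 normalised reads), Ash1l exons 4 to 5 (0), Ash1l exons 11 to 12 (5.77) and Tet3 exons 3 to 4 (11.5). Sham replicate 2 did so for the Carm1 sum and its circle of exons 2 to 4 (22.7 each), the Cdyl sum and its exon 5 circle (45.4 each) and Ash1l exons 4 to 5 (18.2). Sham replicate 1 did so for the Tet3 sum (1.14) and Ash1l exon 5 (0.379), where the other sham libraries had no read. TAC replicate 2 and sham replicate 2 are the shallowest libraries, with 1119 and 3963 reads, and 1 read there is worth 5.77 and 4.54 normalised reads.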

How the results depend on the processing

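limma's main fit called 1 of 3735 circles and 1 of 2967 host sums. For circles TMM rescaling and length trend removal each called 0 (125 and 341 at an unadjusted p under 0.05), edgeR 94 and DESeq2 33. Fits without the 2 shallow libraries called 407 with limma, 344 with edgeR and 201 with the length trend removed. Leaving out each replicate gave 0 to 41, the highest without TAC replicate 2. For hosts a filter of 6 of 8 libraries, TMM and length trend removal each called 0 (56, 79 and 240 unadjusted), edgeR 84 and DESeq2 31. Without the 2 shallow libraries limma called 357, edgeR 299 and the length-corrected fit 149, and leaving out each replicate gave 1 to 28. The edgeR and length-corrected fits of 6 libraries were chosen after seeing the data.

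Of the 7 gene sums, 6 kept their sign under every alternative that gave a value. Cdyl turned negative with the length trend removed (-0.10) and without TAC replicate 1, 3 or 4. Values that moved beyond the spread within groups were Tet3 with pseudocount 1 (2.73), with the length trend removed (3.28, and 1.54 without the 2 libraries) and with edgeR on 6 libraries (3.44), Eed (-2.88) and Med13l (-2.56) with edgeR on 6 libraries, and Ash1l with length and the 2 libraries removed (0.40). Leaving out each replicate gave -2.45 to -1.79 for Eed, 0.89 to 1.57 for Ash1l, 4.27 to 5.20 for Tet3, -3.73 to -2.39 for Carm1, -0.40 to 2.49 for Cdyl, -1.71 to -0.77 for Med13l and 1.57 to 3.44 for Aff1. The causes were not tested. Of the 14 named circles with a fitted difference, 5 changed sign, namely Eed exons 8 to 11 under 6 settings, Eed exons 2 to 9 under 7, Ash1l exons 11 to 12 under 5, and Cdyl exon 5 and Ash1l exons 8 to 12 under 4 each. The mean share over libraries of the main circle was 68.7% for Eed, 75.0% for Carm1 and 92.1% for Med13l, below the shares of pooled reads, to which sham replicate 4 gave most reads. No paired analysis was possible because the replicate numbers are in accession order and pair no mice. Depth limits all values of the 2 shallow libraries.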
